A study of Homo sapiens with 4 samples.

Results

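Immediate-early and stress-response genes were followed as a set of 50 named genes in m6A-seq of X-ray-treated HEK293T cells, a human embryonic kidney line. The 50 genes were chosen by symbol, and the counts of all transcripts of a symbol were summed. Of the 50, 48 were listed in at least 1 library, out of 14911 genes listed in all, and EGR2 and MCL1P1 were not listed. A gene was compared only if its 4 libraries averaged 50 counts or more, which 29 of the 50 genes did and 5320 genes in all. This average ran over input and m6A-IP alike, so a gene with much m6A-IP RNA reached it more easily. FOSL2, EGR1, IER2, ATF5 and TRIB3 had under 50 counts in both inputs and reached it only through their m6A-IPs.

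The 4 groups held 1 library each. A control shRNA (shCTL) or one that targets ALKBH5 (shA5, labelled shALKBH5) was expressed, and from each of these cell pools an input and an m6A-IP were sequenced. ALKBH5 is the demethylase that removes m6A, the methyl mark on adenosine in mRNA. All 4 libraries came from cells treated with X-ray, so whether a level responded to X-ray cannot be told. According to the study's methods the shRNAs were carried by lentivirus with puromycin selection. Which of the study's ALKBH5 shRNAs was used and how long after X-ray the cells were taken were not given for these libraries. RNA was selected by oligo(dT) and fragmented, and the m6A-IP is the part bound by an m6A antibody.

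With 1 library per group there was no replicate error and no test. Intervals in square brackets are exact 95% intervals for counting error only, and a difference outside its interval compares these libraries, not the conditions. Levels are CPM, counts scaled to the library total. m6A enrichment is the log2 ratio of m6A-IP to input CPM, with 0.5 CPM added to each, and a difference of at least 1.5-fold was counted as called. Since each library was scaled to its own total, an enrichment of 0 stands for the average of the library and not for the absence of m6A.

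The total counts were 2237819 in shCTL input, 3944402 in shCTL m6A-IP, 1311390 in shA5 input and 3148119 in shA5 m6A-IP, so that 3 counts amounted to 0.761 to 2.29 CPM. ALKBH5 had 486 counts in shCTL input and 145 in shA5 input, which is 217 and 111 CPM, and its input RNA was lower in the shA5 library by 0.97 on the log2 scale (-0.97 [-1.25, -0.70]). All 8 HEK293-line genes were listed, but only NEFL, LIN28B and KRT8 reached a mean of 50 counts, VIM had 2 to 8 counts and PAX2 0 or 1. Markers of leukocytes, red cells, liver and endothelium had at most 8 summed counts in any library. Of 6 markers of colon epithelium, the source of another line in the study, CDX2 had 223 to 1488 counts and the other 5 at most 3. The part of these markers in the results was not tested.

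Immediate-early genes are transcribed within minutes of a growth signal or stress without new protein synthesis, through MAP kinases and the serum response factor SRF. Many encode transcription factors, such as the JUN and FOS proteins of AP-1, or feedback regulators, and their mRNAs are often short, with few introns, and decay fast. The integrated stress response adds a parallel branch: phosphorylation of the initiation factor eIF2 lowers general translation and favours ATF4, whose targets include ATF3, TRIB3 and CHAC1. m6A tends to lie in long exons and around the stop codon, and exon junctions keep it from nearby sites.

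The mRNAs at both ends of the m6A enrichment order are shown here by their sequence. GGACT, the commonest core of an m6A site, was searched on the transcript strand of the most counted transcript of each gene. It was found in 28 of the 29 genes (96.6%) and in 93.3% of the 5292 genes with a matched transcript, and EGR1 was the gene without it. Each line gives the match nearest to the stop codon in capitals with the bases around it, from Gencode release 44 on hg38. No m6A was measured at single bases, so these are matches and not mapped sites. The 5 genes with the highest enrichment in shCTL come first.
IER5: tccagtttctcgGGACTcctacggaaaag
IER5L: gcctcggcgcctGGACTcgagccattgtc
GADD45B: gaccacactttgGGACTtgggagctgggg
JUN: ggtatccaagttGGACTgggttgcgtcct
JUNB: gcaaaccacactGGACTccggccctccta
Of the 5 genes with the lowest enrichment, 4 are shown.
CCND1: caagtgtgacccGGACTgcctccgggcct
ATF4: ggtgttggtgggGGACTtgatgtccccct
ID3: ctcaggagcgaaGGACTgtgaacttgtgg
SESN3: attccgagctcaGGACTatacctgggaaa

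The IER5 window lies at chr1:181089725-181089753 on the plus strand, in the coding part of its only exon, 147 nt before the end of the stop codon. The IER5L window lies at chr9:129176847-129176875 on the minus strand, in the coding part of its only exon and 23 nt before that end. The JUN window (chr1:58781927-58781955, minus strand) and the JUNB window (chr19:12792927-12792955, plus strand) lie in the 3′UTR of genes with 1 exon, 134 and 126 nt after the stop codon. The GADD45B window (chr19:2478065-2478093, plus strand) lies in the 3′UTR in exon 4 of 4, and its match is 592 nt from the nearest junction. In SESN3 the window runs across the junction of exons 7 and 8 of 10 (chr11:95177894-95178722, minus strand), in CCND1 across that of exons 4 and 5 of 5 (chr11:69648130-69651133, plus strand), and both are coding. In these 2 windows the match is 2 nt from the junction. The ATF4 window (chr22:39521475-39521503, plus strand) is coding, in exon 1 of 2 and 182 nt from the junction, and the ID3 window (chr1:23558251-23558279, minus strand) is in the 3′UTR in exon 3 of 3, 151 nt from the junction. Among the 5 highest, IER5 had 6 GGACT matches, IER5L 12, GADD45B 4, JUN 5 and JUNB 1. Among the 5 lowest, MYC had 4, CCND1, ID3 and SESN3 3 each and ATF4 2.

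The levels after X-ray were dominated by a few genes. The listed members made up 0.667% of the counts in shCTL input, 1.22% in shCTL m6A-IP, 0.644% in shA5 input and 1.28% in shA5 m6A-IP, and JUN alone gave 18.7 to 27.2% of these counts. Per kilobase of transcript, the highest levels in shCTL input were those of JUN (425 CPM per kb), ID3 (328 CPM per kb), JUND (218 CPM per kb), JUNB (168 CPM per kb) and DDIT4 (148 CPM per kb). The lowest among the 29 were those of EGR1 (4.42 CPM per kb) and FOSL2 (2.62 CPM per kb). Some of the classical serum-induced genes were at the floor of detection. FOS had 0 counts in both inputs, 1 in shCTL m6A-IP and 3 in shA5 m6A-IP, FOSB had 1 to 3, FOSL1 1 to 3 and DUSP6 0 to 2 counts, so these 4 had at most 3 counts in every library.

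**Figure D1:**
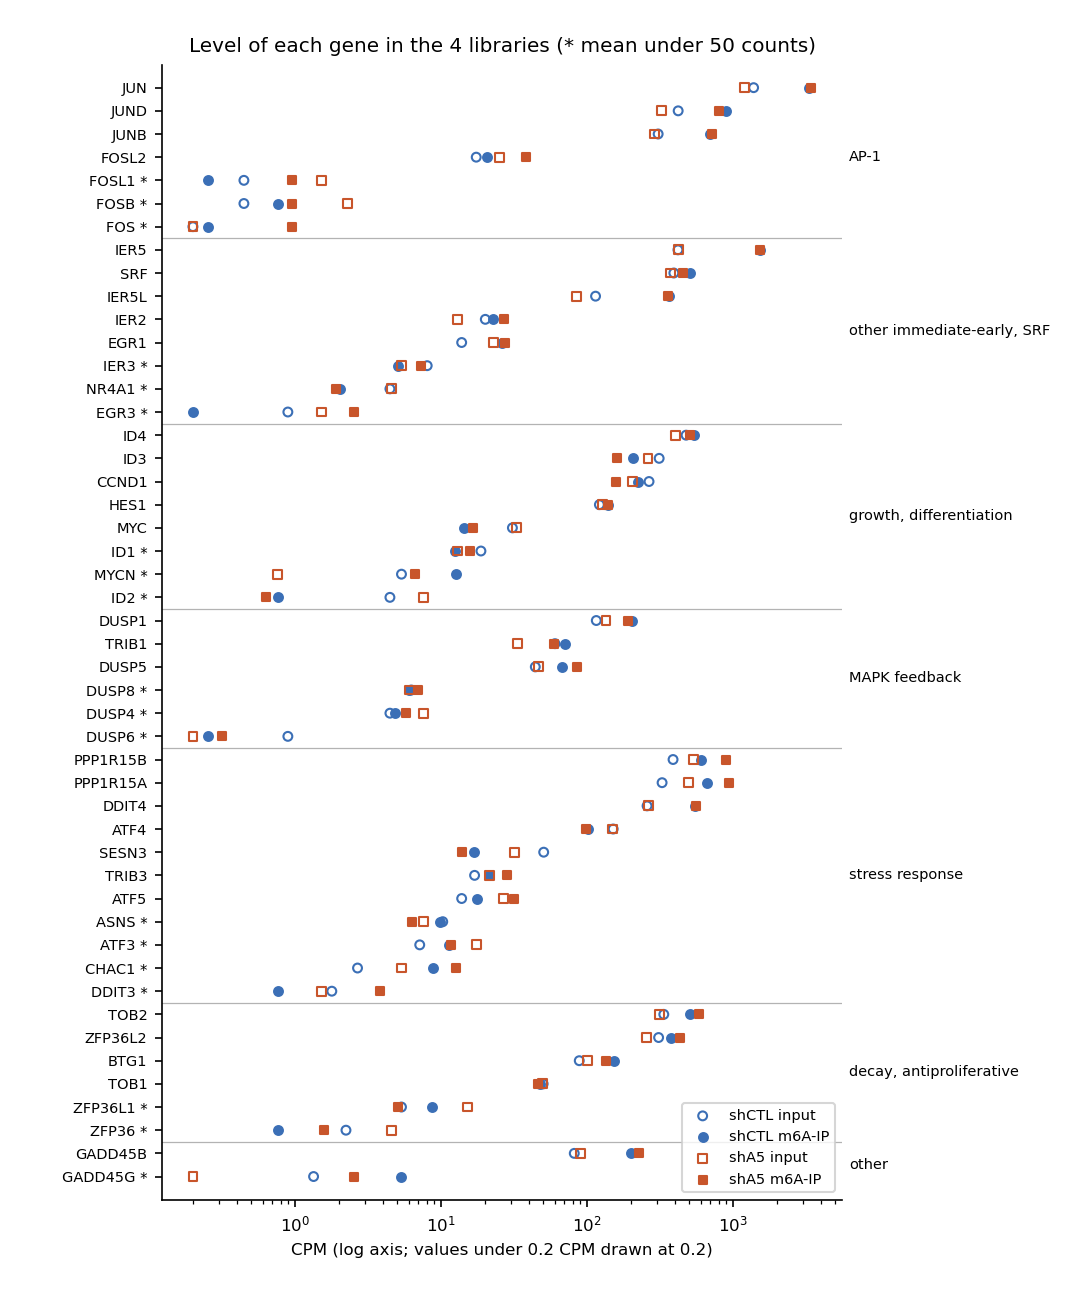
Level of the 48 listed genes in the 4 libraries, in CPM on a log axis, grouped by role; open symbols are inputs, filled symbols m6A-IPs, circles shCTL and squares shA5, and genes with a star had a mean under 50 counts. JUN was the highest in every library, at 1206 to 3445 CPM, and FOS, FOSB, FOSL1 and DUSP6 were at the left end.

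m6A enrichment in shCTL was at least 1.5-fold above the library average for 14 of the 29 genes and at least 1.5-fold below it for 3. Over all 5320 genes these shares were 22.5% above and 30.3% below. Scaled by DESeq2 size factors, 18 and 2 of the 29 were called, beside 35.0% and 19.3% of all genes. The median enrichment of the 29 genes was 0.37, with quartiles of 0.18 and 1.03, and that of all genes was -0.11, with quartiles of -0.73 and 0.52. Of the 29, 24 lay above the median of all genes. In shA5, 15 genes were called above (24.3% of all genes) and 4 below (31.7% of all genes), with a median of 0.59 against -0.10. Enrichment followed GC content over all genes, with a Spearman's rho of 0.36 across the 5292 genes, and the transcripts of the 29 genes had a median GC of 55.3% against 51.4%. With the GC trend removed, 11 of the 29 genes were called above in shCTL (21.2% of all genes) and 15 in shA5 (22.3% of all genes). In shCTL, JUND, DUSP5 and TOB2 then lost their call, and JUNB went from 1.19 to 0.71.

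**Figure D2:**
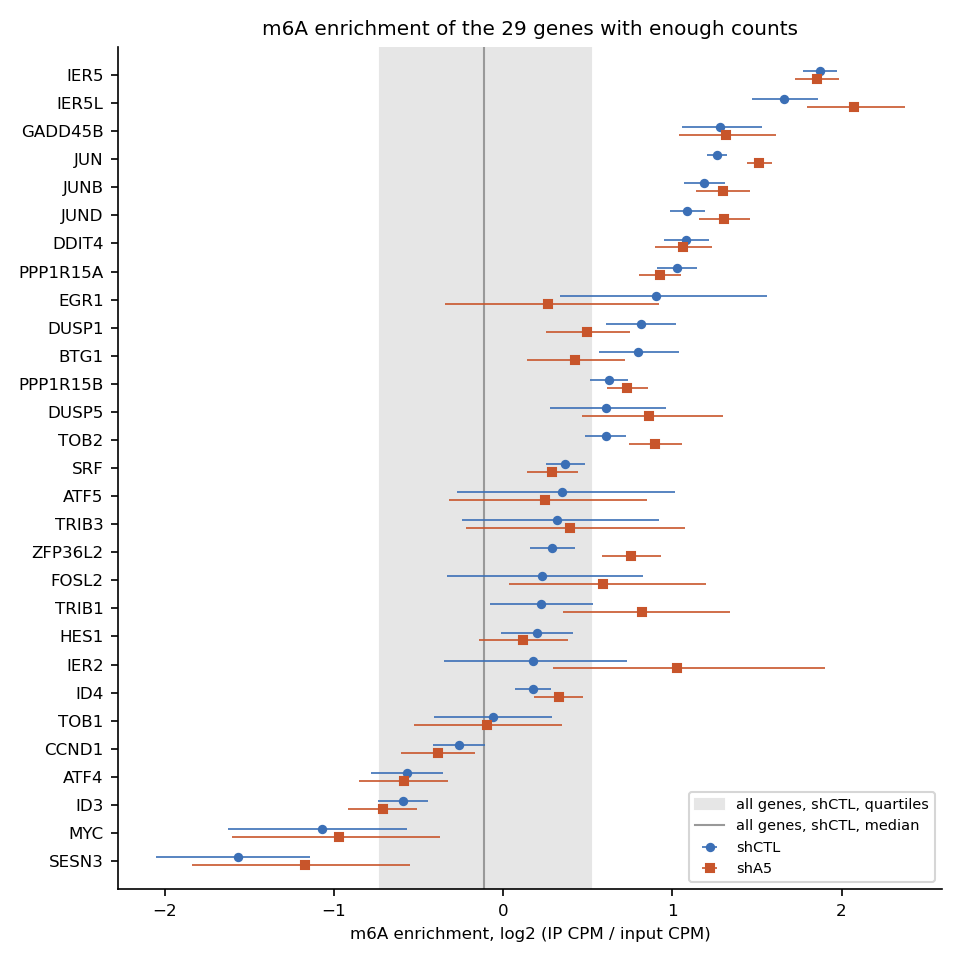
m6A enrichment (log2 of IP over input CPM) of the 29 genes that averaged 50 counts or more, in shCTL (circles) and shA5 (squares), with 95% counting intervals as bars; the grey band and line are the quartiles and median of all genes in shCTL. IER5 and IER5L were at the top in both, and SESN3 and MYC at the bottom.

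The AP-1 genes encode subunits that pair to bind DNA. Of 7 genes, 4 reached the count minimum, and all 4 lay above the median enrichment of all genes in shCTL. JUN, JUNB and JUND were called above in shCTL (22.5% of all genes), and the same 3 with FOSL2 were called above in shA5 (24.3% of all genes). With the GC trend removed JUND was called in neither and FOSL2 not in shA5, and FOSL2 was not called with a pseudocount of 2 CPM or the most counted transcript alone. JUN had 3095 counts in shCTL input, 13097 in shCTL m6A-IP, 1581 in shA5 input and 10845 in shA5 m6A-IP, an enrichment of 1.26 [1.21, 1.32] in shCTL and 1.51 [1.44, 1.59] in shA5. In CPM both m6A-IPs of JUN were above both inputs. JUNB, which often counters JUN in AP-1 dimers, had 687, 2760, 380 and 2245 counts in the same order of libraries, an enrichment of 1.19 [1.07, 1.31] in shCTL and 1.30 [1.14, 1.46] in shA5. Exons of HOOK2 overlap JUNB on the other strand, and whether counting used strand was not stated. JUND, the JUN protein that is made most steadily, had an enrichment of 1.09 [0.99, 1.20] in shCTL and 1.30 [1.16, 1.46] in shA5. FOSL2, the only FOS-family gene with enough counts, reached the minimum only through its m6A-IPs. It was at 0.23 [-0.33, 0.83] in shCTL and 0.59 [0.03, 1.20] in shA5. The summed AP-1 level was 2129 CPM in shCTL input and 1849 CPM in shA5 input, against 4938 and 5002 CPM in the m6A-IPs.

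Among the other immediate-early genes and SRF, 5 of 9 reached the count minimum, and EGR1, IER5 and IER5L were called above in shCTL (22.5% of all genes). EGR1 and IER2 reached the minimum only through their m6A-IPs. IER5, which acts with heat-shock factor HSF1 and the phosphatase PP2A, had 939 counts in shCTL input, 6066 in shCTL m6A-IP, 552 in shA5 input and 4790 in shA5 m6A-IP. Its enrichment of 1.87 [1.77, 1.97] in shCTL was the highest of the 29 and above 99.8% of all genes, and in shA5 it was 1.85 [1.73, 1.98]. Its paralog IER5L had 256, 1430, 111 and 1125 counts, an enrichment of 1.66 [1.47, 1.86] in shCTL and 2.07 [1.80, 2.37] in shA5. Both genes have 1 exon and 1 annotated transcript, and exons of IER5L-AS1 overlap IER5L on the other strand. EGR1, a zinc-finger factor induced by growth signals, had 31, 104, 30 and 87 counts, and its enrichment was 0.90 [0.34, 1.56] in shCTL and 0.27 [-0.34, 0.92] in shA5. IER2 had 45, 90, 17 and 85 counts, and its enrichment was 0.18 [-0.35, 0.73] in shCTL and 1.03 [0.30, 1.9] in shA5. SRF itself had a level of 393 CPM in shCTL input and 372 CPM in shA5 input, with an enrichment of 0.37 and 0.29. IER3 had 7 to 23 counts, NR4A1 6 to 10 and EGR3 0 to 8.

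Of the 8 genes of growth and differentiation control, 5 reached the count minimum, and 2 of these lay above the median of all genes in shCTL. None of the 5 was called above in shCTL (22.5% of all genes), and MYC and ID3 were called below (30.3% of all genes), also in shA5. With DESeq2 size factors ID3 was called below in neither, and ID4 was called above in shA5 with these factors or with the GC trend removed. MYC, the transcription factor of cell growth, had 69 counts in shCTL input, 57 in shCTL m6A-IP, 43 in shA5 input and 52 in shA5 m6A-IP, an enrichment of -1.07 [-1.63, -0.57] in shCTL and -0.97 [-1.60, -0.37] in shA5. MYC also lay just above the count minimum, with a mean of 55.25, and exons of CASC11 overlap it on the other strand. ID3, an inhibitor of basic helix-loop-helix factors, had 698, 816, 343 and 502 counts, and its enrichment was -0.59 [-0.74, -0.44] in shCTL and -0.71 [-0.91, -0.51] in shA5. CCND1, the cyclin D1 that drives entry into S phase, had 595, 875, 269 and 494 counts, an enrichment of -0.26 [-0.41, -0.11] in shCTL and -0.39 [-0.60, -0.17] in shA5. For these 3 genes the m6A-IP level in CPM was below the input level in both shCTL and shA5. ID4 and HES1, a repressor downstream of Notch, were near the average at 0.17 and 0.20 in shCTL. ID1 (17 to 50 counts, a mean of 39.5) lay just under the count minimum, with MYCN at 1 to 50 and ID2 at 2 to 10 counts.

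The feedback regulators of MAP kinases were above the median of all genes where they could be measured. DUSP1 and DUSP5 are phosphatases that switch MAP kinases off, and their enrichment in shCTL was 0.81 [0.61, 1.02] and 0.61 [0.28, 0.96]. In shA5 it was 0.50 [0.26, 0.75] for DUSP1 and 0.86 [0.47, 1.30] for DUSP5. DUSP5 has the pseudogenes DUSP5P1 and DUSP5P2, whose reads may be shared. TRIB1, a pseudokinase that directs proteins to the COP1 ubiquitin ligase, had 135 counts in shCTL input, 278 in shCTL m6A-IP, 44 in shA5 input and 188 in shA5 m6A-IP. Its enrichment was 0.22 [-0.08, 0.53] in shCTL and 0.82 [0.35, 1.34] in shA5. DUSP4 had 10 to 19 and DUSP8 8 to 24 counts.

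Of the 11 genes of the integrated stress response, 7 reached the count minimum. DDIT4, PPP1R15A and PPP1R15B were called above in shCTL (22.5% of all genes) and SESN3 was called below (30.3% of all genes). PPP1R15A (GADD34) and PPP1R15B (CReP) recruit the phosphatase that restores eIF2 to its active form. PPP1R15A had 731 counts in shCTL input, 2627 in shCTL m6A-IP, 646 in shA5 input and 2948 in shA5 m6A-IP, an enrichment of 1.03 [0.91, 1.15] in shCTL and 0.93 [0.80, 1.05] in shA5. PPP1R15B had an enrichment of 0.63 [0.51, 0.74] and 0.74 [0.62, 0.86], and DDIT4, an inhibitor of mTORC1, 1.08 [0.95, 1.22] and 1.06 [0.90, 1.23]. ATF4, the central factor of the response, had 338, 402, 195 and 311 counts and was below the average at -0.57 [-0.78, -0.35] in shCTL and -0.59 [-0.85, -0.32] in shA5. The pseudogenes ATF4P1 to ATF4P4 may share its reads. SESN3, a sestrin that restrains mTORC1, had 113, 66, 42 and 44 counts and the lowest enrichment of the 29, -1.57 [-2.05, -1.14] in shCTL and -1.17 [-1.84, -0.55] in shA5. With the GC trend removed these were -1.02 and -0.54, and SESN3 was not called in shA5. ATF5 and TRIB3 were at 0.35 and 0.32 in shCTL. The targets ATF3 (16 to 45 counts), ASNS (10 to 39), CHAC1 (6 to 40) and DDIT3 (2 to 12) were under the minimum.

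Of the factors of mRNA decay and antiproliferation, BTG1 and TOB2, which bind the CCR4-NOT deadenylase, were called above in shCTL (22.5% of all genes) at 0.80 [0.57, 1.04] and 0.61 [0.48, 0.73]. In shA5 BTG1 was at 0.43 [0.14, 0.72] and was called only with DESeq2 size factors or the GC trend removed, and TOB2 was at 0.90 [0.74, 1.06]. TOB1 was at -0.06 [-0.41, 0.29]. ZFP36L2, which binds AU-rich elements and brings mRNAs to decay, was at 0.29 [0.16, 0.42] in shCTL and 0.76 [0.58, 0.93] in shA5. ZFP36L1 had 12 to 34 and ZFP36 3 to 6 counts. GADD45B, a stress sensor that binds MAP3K4, had 183 counts in shCTL input, 788 in shCTL m6A-IP, 119 in shA5 input and 713 in shA5 m6A-IP, an enrichment of 1.28 [1.05, 1.53] and 1.31 [1.04, 1.61]. GADD45G had 0 to 21 counts.

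Across the 29 genes the order of enrichment was much the same in shCTL and shA5, with a Spearman's rho of 0.84, against 0.93 across all 5320 genes. The points share their libraries and are not independent. The change of enrichment from shCTL to shA5 was past 1.5-fold upwards for IER2 and TRIB1 (5.38% of all genes) and downwards for EGR1 (5.09% of all genes), with a median change of 0.08 against 0.0036. The sign of this median did not hold under every setting: it was -0.02 among the 19 genes that averaged 200 counts or more and -0.0046 with the most counted transcript alone. The change was 0.60 [0.03, 1.20] for TRIB1, which was under 1.5-fold with a pseudocount of 2 CPM or the most counted transcript alone, and for IER2 (0.85 [-0.09, 1.88]) and EGR1 (-0.64 [-1.55, 0.24]) the interval included 0. The counting interval lay above 0 for 6 of the 29 genes (8.18% of all genes) and below 0 for none (8.06% of all genes). A counting interval narrows as counts rise, and 19 of the 29 genes averaged 200 counts or more, beside 2491 of all 5320 genes. The part of count level in these shares was not tested. These 6 were JUN at 0.25 [0.16, 0.35], JUND at 0.21 [0.03, 0.40], IER5L at 0.41 [0.07, 0.77], TRIB1, ZFP36L2 at 0.47 [0.25, 0.69] and TOB2 at 0.29 [0.09, 0.49]. The change of enrichment is the m6A-IP change minus the input change, so a lower input in shA5 raises it by construction. The input change and the change of enrichment are therefore not separate results. In each of the 6 the input level was lower in shA5, and in JUN, ZFP36L2 and TOB2 the m6A-IP level was higher.

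Input RNA in shA5 was past 1.5-fold above shCTL for EGR1, ATF5 and PPP1R15A (3.44% of all genes) and past 1.5-fold below for IER2, TRIB1 and SESN3 (6.43% of all genes). PPP1R15A was under 1.5-fold with edgeR TMM factors or libraries thinned to the smallest total, and IER2 with a pseudocount of 2 CPM or the GC trend removed. In bulk RNA a lower level may reflect fewer cells that make an mRNA or less of it per cell, and these cannot be told apart. ATF5, a relative of ATF4, had 31 counts in shCTL input, 70 in shCTL m6A-IP, 35 in shA5 input and 100 in shA5 m6A-IP. Its input level went from 13.9 to 26.7 CPM, a difference of 0.92 [0.21, 1.69], and its m6A-IP level was higher by 0.82 [0.38, 1.30]. Exons of NUP62 and IL4I1 overlap ATF5 on the other strand. PPP1R15A went from 327 to 493 CPM in the inputs (0.59 [0.44, 0.75]) and from 666 to 936 CPM in the m6A-IPs (0.49 [0.42, 0.57]). PPP1R15B moved alike without reaching 1.5-fold, from 388 to 534 CPM (0.46 [0.31, 0.60]), and 0.57 [0.49, 0.65] in the m6A-IPs. For both phosphatase subunits the change of enrichment was within its interval of 0, at -0.10 [-0.27, 0.07] and 0.11 [-0.06, 0.28]. ATF4 differed little in the inputs, at 151 and 149 CPM, and DDIT4 at 258 and 265 CPM.

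On the lower side, TRIB1 went from 60.3 to 33.6 CPM in the inputs, a difference of -0.84 [-1.37, -0.35], while its m6A-IP level differed by -0.24 [-0.51, 0.03]. SESN3 went from 50.5 to 32.0 CPM, a difference of -0.65 [-1.20, -0.13]. For EGR1 (0.70 [-0.05, 1.5]) and IER2 (-0.61 [-1.53, 0.20]) the input interval included 0, at 30 or 31 and at 17 to 45 input counts. Counting intervals of the input change lay above 0 for 3 of the 29 genes, ATF5, PPP1R15A and PPP1R15B (12.9% of all genes). They lay below 0 for 9 genes (15.6% of all genes): JUN at -0.20 [-0.29, -0.11], JUND at -0.37 [-0.54, -0.21], IER5L at -0.43 [-0.77, -0.11], CCND1 at -0.37 [-0.59, -0.16], ID3 at -0.25 [-0.44, -0.07], ID4 at -0.23 [-0.39, -0.08], ZFP36L2 at -0.28 [-0.47, -0.09], TRIB1 and SESN3. In the m6A-IPs, FOSL2 (0.88 [0.47, 1.32]) and ATF5 were past 1.5-fold upwards (2.58% of all genes) and none of the 29 was past it downwards (4.89% of all genes). Counting intervals of the m6A-IP change lay above 0 for 9 of the 29 genes (18.9% of all genes) and below 0 for 5 (21.6% of all genes). For input and m6A-IP alike, such shares depend on count level, which was higher in the 29 genes, and its part was not tested. Input and m6A-IP changes of the 29 genes, measured in different libraries, had a Spearman's rho of 0.59, against 0.45 across all genes.

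**Figure D3:**
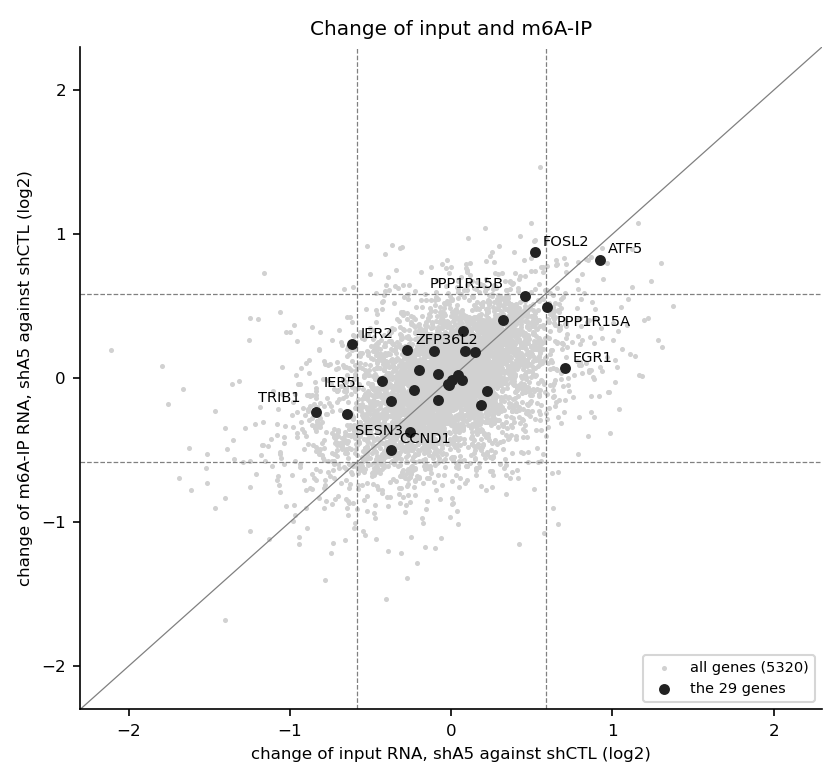
Change of input RNA (horizontal axis) and of m6A-IP RNA (vertical axis) from shCTL to shA5, in log2, for the 29 genes (black) and all 5320 genes (grey); dashed lines mark 1.5-fold, and on the diagonal both changes are equal. PPP1R15A, PPP1R15B and ATF5 lie near the diagonal at the upper right, and TRIB1 and IER2 lie above it on the left.

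A few genes under the count minimum are given by their values. ATF3 had 16 counts in shCTL input, 45 in shCTL m6A-IP, 23 in shA5 input and 37 in shA5 m6A-IP, an input difference of 1.24 [0.31, 2.31] and a change of enrichment of -1.20 [-2.48, -0.04]. ZFP36L1 had 12, 34, 20 and 16 counts, an input difference of 1.43 [0.41, 2.67] and a change of enrichment of -2.13 [-3.77, -0.79]. In both, the shA5 input was the highest of the 4 levels in CPM. MYCN had 12, 50, 1 and 21 counts, an input difference of -2.22 [-8.23, -0.06] and an m6A-IP difference of -0.88 [-1.74, -0.16]. These 3 genes were picked from those under the minimum after their values were seen, and the share of all genes under the minimum with such intervals was not counted.

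The 29 genes had fewer exons than most genes. By the annotation, 6 of them (20.7%) had 1 exon and 14 (48.3%) had 2 or 3, against 4.27% and 13.5% of all genes. The median number of exons was 3 against 9, and the median share of bases more than 100 nt from a junction 90.0% against 67.3%. Transcript length was 2710 nt at the median, against 3590 nt. The 6 genes with 1 exon, JUN, JUNB, JUND, IER2, IER5 and IER5L, had a median enrichment of 1.23 in shCTL, beside 1.02 for the 226 genes with 1 exon in all. With 2 or 3 exons the medians were 0.32 and 0.51, and with 4 or more exons 0.32 and -0.25. Across the 29 genes, enrichment in shCTL and the number of exons had a Spearman's rho of -0.42, against -0.26 across all genes. Among the 23 genes with 2 or more exons it was -0.13.

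**Figure D4:**
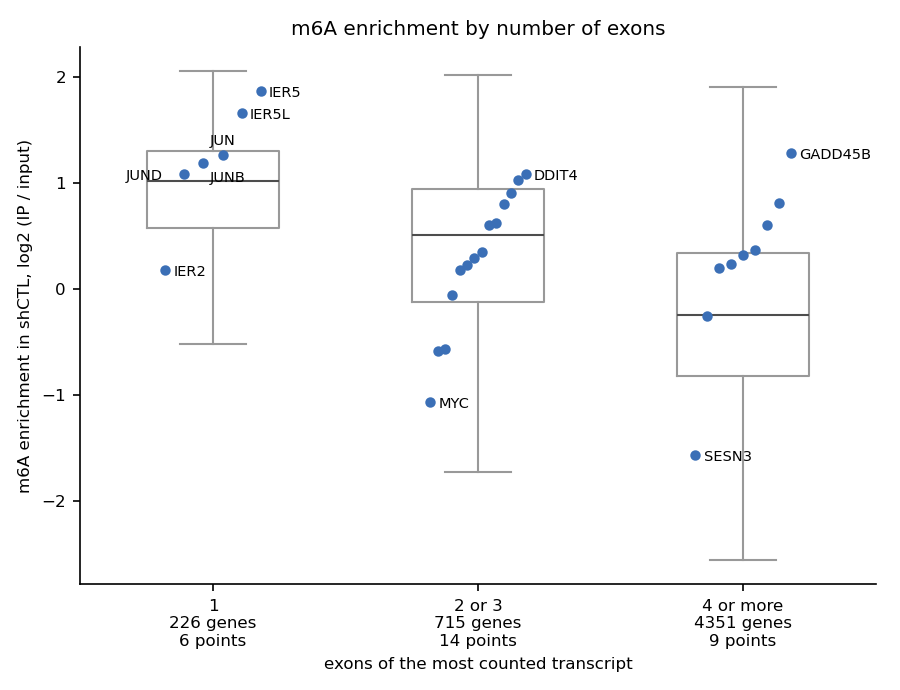
m6A enrichment in shCTL (log2 of IP over input CPM) by the number of exons of the most counted transcript; boxes are the quartiles and median of all genes with whiskers to the last value within 1.5 box heights, and points are the 29 genes. The genes with 1 exon reached 1.87 (IER5), with IER2 at 0.18 as the lowest of the 6, and SESN3 with 10 exons was at -1.57.

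AU-rich elements, which mark many of these mRNAs for decay, were searched on the transcript strand of the 3′UTR as the nonamer TTATTTATT, which holds the pentamer ATTTA. The nonamer was found in 5 of the 29 genes (17.2%), against 9.54% of 5281 genes with a 3′UTR to search, and ATTTA in 72.4% against 71.8%. The 5 genes are shown because they include the gene with the highest enrichment, with the nonamer in capitals.
IER5: gtgtcttcctTTATTTATTtatttattta
DUSP1: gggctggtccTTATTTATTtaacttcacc
SRF: atggcaccacTTATTTATTgttgcctttt
ZFP36L2: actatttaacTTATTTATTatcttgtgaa
FOSL2: atttattttaTTATTTATTttaaatgttt
These windows lie on hg38 at chr1:181092443-181092471 (plus strand), chr5:172768643-172768671 (minus), chr6:43179224-43179252 (plus), chr2:43223448-43223476 (minus) and chr2:28416355-28416383 (plus). IER5 held 3 matches in its 3′UTR, which overlap, and DUSP1 held 2 in separate places. The enrichment of the 5 genes in shCTL ran from 0.23 in FOSL2 to 1.87 in IER5.

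How many of these genes could be measured went with the number of annotated transcripts. All 8 listed genes with 1 annotated transcript reached the count minimum, but 9 of 16 with 2 or 3 (56.2%) and 12 of 24 with 4 or more (50%). Over all genes the shares were 41.2%, 38.1% and 34.9%. FOS has 10 annotated transcripts, of which 3 were listed. How reads shared between transcripts were counted was not stated, and its part in these levels was not tested. Of the 29 genes, 11 had exons that overlap those of another gene on the other strand: JUNB, IER2, IER5L, MYC, CCND1, ATF5, SESN3, PPP1R15B, ZFP36L2, BTG1 and TOB1. Annotated pseudogenes were found for 4, ATF4, DUSP5, BTG1 and TOB2. Reads of these genes may be shared, which leaves their values uncertain.

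Other genes of the same pathways were listed by their known roles. Of 33 genes of the MAP kinase and SRF pathway, 14 reached the count minimum, none was called above in shCTL (22.5% of all genes), 7 were called below (30.3% of all genes), and their median enrichment was -0.54. None of the 14 was past 1.5-fold in input RNA, beside 3.44% of all genes above and 6.43% below. DUSP16, a phosphatase of JNK and p38, was past it downwards in the change of enrichment (-0.78 [-1.65, 0.06], beside 5.09% of all genes). In m6A-IP, DUSP16 was past it downwards (-0.63 [-1.18, -0.13], beside 4.89% of all genes) and ELK4, an SRF partner, upwards (0.65 [0.33, 0.99], beside 2.58% of all genes). Of 26 genes of the integrated stress response, 16 reached it, with 2 called above (22.5% of all genes) and 6 below (30.3% of all genes) in shCTL and a median of -0.30. EIF2S1, the phosphorylated subunit of eIF2, was the 1 gene of the 16 past 1.5-fold upwards in input RNA (0.63 [0.20, 1.06]), beside 3.44% of all genes. None of the 16 was past it in the change of enrichment, beside 5.38% of all genes upwards and 5.09% downwards. Of 25 other immediate-early genes, 12 reached it, with 8 called above (22.5% of all genes) and 1 below (30.3% of all genes) in shCTL and a median of 0.90. SERTAD1, a cofactor of E2F, was past 1.5-fold upwards in the change of enrichment (0.77 [0.11, 1.47], beside 5.38% of all genes). Its counts were 68 in shCTL input, 310 in shCTL m6A-IP, 32 in shA5 input and 341 in shA5 m6A-IP. The antiproliferative gene BTG2 was past 1.5-fold downwards in input RNA, at 195, 424, 71 and 244 counts (-0.68 [-1.10, -0.29], beside 6.43% of all genes).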

How the data were processed

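The 4 files hold raw read counts per Ensembl transcript, deposited by the authors as 1 file per library with no pooling. Per the labels and the study's methods, reads were handled with bcl2fastq 2.0, fastp 0.23.2, HISAT2 on hg38, SAMtools 1.9 and MACS2, and StringTie is named for quantification. The counting program, its strand setting, the annotation release and the treatment of reads shared between transcripts were not given in the sources used here. The 50 members and all lists were chosen with earlier results of these data known.

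Counts were summed per gene name and scaled to CPM by library totals. Genes that averaged 50 counts or more were compared on log2(CPM + 0.5). Intervals were exact and conditional on the total count, without the pseudocount (scipy 1.17.1), and the scripts were tested on simulated data. Since IP fragments cluster around sites, CPM of an m6A-IP is not a transcript level. Features came from Gencode release 44, which held 98.1% of the 28413 listed transcripts.

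Counts in all 4 libraries were given for genes among the 5 highest or 5 lowest by enrichment in shCTL, or past 1.5-fold in the change of enrichment or input. From the pathway lists, genes past 1.5-fold in a change were named. Alternatives used edgeR 4.0.16 and DESeq2 1.42.0 for scaling only, other pseudocounts, count minimums and thresholds, thinned libraries, the most counted transcript alone and a GC correction.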

Additional observations from a re-analysis of the deposited data

How the results depend on the processing

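No paired analysis was possible because there was 1 library per group, and for the same reason no library could be left out. Over 11 alternatives 744 values were recomputed, and no called value changed sign. The median enrichment ran from 0.30 without a filter to 0.80 at a mean of 200 counts in shCTL, where it was 0.37, and in shA5 from 0.42 to 0.91, where it was 0.59. That of all genes moved too. In shCTL it was -0.22 without a filter and 0.12 at a mean of 200 counts, and in shA5 -0.15 and 0.16. Medians near 0 changed sign. For the change of enrichment the median of 0.08 went to -0.02 at a mean of 200 counts and -0.0046 with the most counted transcript, and that of the input change, -0.01, went to 0.0023 without a filter. Counts of called genes that moved by over 1.5 times follow, with the share of all genes under the same setting in parentheses. The number of the 50 genes compared was 38 at a mean of 10 counts, 19 at 200, 48 without a filter, 22 after thinning to the smallest library and 28 with the most counted transcript, and other causes were not tested. For the input change, the 3 higher became 0 at 2-fold (0.47%), 0 after thinning (2.16%), 7 at 10 (9.32%), 1 at 200 (1.08%) and 11 without a filter (15.3%). The 3 lower became 0 at 2-fold (1.15%), 1 after thinning (4.55%), 0 at 200 (3.33%) and 6 without a filter (19.9%). For the change of enrichment, the 2 higher became 0 at 2-fold (0.846%), 1 after thinning (4.6%), 5 at 10 (12.6%), 0 at 200 (1.65%), 10 without a filter (22.7%), 1 with the most counted transcript (5.58%) and 1 with a pseudocount of 2 CPM (4.81%). The 1 lower became 0 at 2-fold (0.771%), 0 after thinning (4.65%), 3 at 10 (13.0%), 0 at 200 (1.08%) and 5 without a filter (21.4%). For enrichment in shA5, the 15 above became 8 at 2-fold (12.0%). The 4 below became 1 at 2-fold (18.4%), 2 with DESeq2 size factors (21.5%), 1 after thinning (30.6%), 2 at 200 (23.7%), 9 without a filter (37.5%) and 2 with the most counted transcript (31.3%). For enrichment in shCTL, the 14 above became 8 at 2-fold (10.1%), and the 3 below became 1 after thinning (29.5%), 1 at 200 (21.7%) and 10 without a filter (36.7%). DESeq2 size factors moved the median enrichment of all genes up by 0.33 in shCTL and 0.32 in shA5, and that of the 29 genes to 0.70 and 0.91. For FOS, with 0 counts in the inputs, the exact upper limit was 1.65 CPM in shCTL and 2.81 CPM in shA5.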
